A study of Rattus norvegicus with 24 samples.

Results

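Genes of the oligodendrocyte lineage were followed in the nucleus accumbens of Sprague Dawley rat pups at postnatal day 14 (P14), from progenitor markers to the proteins of compact myelin. The set held 34 genes chosen by symbol, and all 34 were found, each under 1 gene identifier, among the 23950 genes of the files. The 24 libraries came from 6 groups of 4 pups. F1 SAL and F2 SAL are the saline control lineage. In the in utero oxycodone (IUO) lineage, F0 females were gavaged with oxycodone (oxy) at 10 mg/kg/day, raised in steps of 0.5 mg/kg/day to 15 mg/kg/day, before mating and on through gestation until weaning. In the postnatal oxycodone (PNO) lineage, F0 dams received 15 mg/kg/day from parturition until weaning, so that the F1 pups were exposed through milk. F1 animals were not dosed themselves, and the F2 pups were born to F1 females mated with males new to the experiment. Pups of both sexes entered the groups, and neither sex nor litter is given per library.

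Oligodendrocyte progenitors carry the receptor for platelet-derived growth factor and the NG2 proteoglycan, divide, and leave the cell cycle to become premyelinating cells, a step steered by transcription factors of the Olig, Sox and Nkx families. Myrf then switches on the genes of the myelin sheath, whose proteins hold its layers together while a set of enzymes makes its galactolipids. In the rat forebrain these steps are under way in the second postnatal week, so progenitors, premyelinating cells and the first myelinating cells lie side by side in the tissue.

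The start sites of these genes differ in the letters known for the lineage's transcription factors. RefSeq promoter sequences (GRCr8) matched 26 of the 34 genes, and 3 motifs were searched on both strands in the 250 bases before the start. The Myrf letters CTGGCAC were in 5 of the 26, those of Cnp, Mag, Mal, Olig2 and Opalin, against 3.69% of 27457 promoters. The Sox letters ACAAAG were in 5 of the 26 (Cnp, Enpp6, Mag, Mobp and Opalin), against 16% of all promoters, and the E-box CAGCTG, a form bound by Olig2, was in 3 (Aspa, Cnp and Opalin), against 11.9%. The 5 promoters with the Myrf letters are printed 5′ to 3′ on the gene's strand, with that of Cspg4, the progenitor gene called in the most comparisons. Capitals mark the letters of the 3 motifs, which do not overlap in these windows, and Cspg4 holds none of them. A match on the opposite strand appears as its reverse complement, and a match is a description of letters, not a binding site.
Mag (chr1:95291045-95291294, minus strand): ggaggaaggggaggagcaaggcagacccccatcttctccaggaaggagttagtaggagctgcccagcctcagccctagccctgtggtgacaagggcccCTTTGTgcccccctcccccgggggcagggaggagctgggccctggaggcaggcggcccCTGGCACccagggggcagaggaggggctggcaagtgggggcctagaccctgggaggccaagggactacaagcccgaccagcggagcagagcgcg
Cnp (chr10:86011254-86011503, plus strand): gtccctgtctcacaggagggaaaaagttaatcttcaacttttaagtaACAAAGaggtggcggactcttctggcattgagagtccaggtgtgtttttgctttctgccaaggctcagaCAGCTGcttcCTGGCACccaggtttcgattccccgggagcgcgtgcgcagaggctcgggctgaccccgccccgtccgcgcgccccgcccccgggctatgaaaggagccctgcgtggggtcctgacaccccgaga
Opalin (chr1:249858191-249858440, minus strand): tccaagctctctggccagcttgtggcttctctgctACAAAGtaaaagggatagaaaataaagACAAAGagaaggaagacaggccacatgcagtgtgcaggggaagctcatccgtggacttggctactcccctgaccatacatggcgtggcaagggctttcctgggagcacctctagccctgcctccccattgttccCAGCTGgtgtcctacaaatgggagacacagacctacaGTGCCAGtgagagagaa
Mal (chr3:135341424-135341673, minus strand): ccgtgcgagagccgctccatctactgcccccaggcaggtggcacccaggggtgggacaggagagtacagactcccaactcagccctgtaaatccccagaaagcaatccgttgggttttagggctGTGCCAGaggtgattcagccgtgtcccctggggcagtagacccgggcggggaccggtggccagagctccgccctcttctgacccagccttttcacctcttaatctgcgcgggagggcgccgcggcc
Olig2 (chr11:43961335-43961584, plus strand): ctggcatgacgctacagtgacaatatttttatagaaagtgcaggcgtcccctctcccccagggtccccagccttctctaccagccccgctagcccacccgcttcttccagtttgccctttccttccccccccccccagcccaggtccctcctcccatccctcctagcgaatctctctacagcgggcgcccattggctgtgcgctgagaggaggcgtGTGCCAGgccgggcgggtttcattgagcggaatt
Cspg4 (chr8:66160692-66160941, plus strand): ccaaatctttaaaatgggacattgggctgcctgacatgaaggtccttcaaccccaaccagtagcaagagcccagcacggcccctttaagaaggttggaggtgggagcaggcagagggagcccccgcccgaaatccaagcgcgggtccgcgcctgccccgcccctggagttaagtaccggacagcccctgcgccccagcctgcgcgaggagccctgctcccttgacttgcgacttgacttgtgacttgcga
In Mag the Myrf letters began 94 bases before the start, in Cnp 124, in Opalin 17, in Mal 126 and in Olig2 34.

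Values are FPKM, sequenced fragments scaled to gene length and to each library's mapped total, so levels can be compared between genes. Read depth is unknown from FPKM, and no counting interval can be given. In a bulk sample, fewer cells of a type and less RNA per cell cannot be told apart. The 276 library pairs correlated at r from 0.932 to 0.979, and no 2 libraries were identical. Mitochondrially encoded genes held 18.8% to 47.4% of the FPKM sum. Markers of neighbouring regions varied between pups, and the summed FPKM of the choroid plexus list ran from 5.00 to 12286. Drd1, Drd2 and Ppp1r1b, markers of striatal projection neurons, were present in every library (Ppp1r1b at 167 to 549 FPKM). They mark the striatum as a whole, so they cannot tell the nucleus accumbens from other striatum. The summed list of striatal projection neurons ran from 408 to 1337 FPKM, cortex from 8.03 to 349, thalamus from 10.2 to 88.3 and hypothalamus from 3.99 to 262.

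Both ends of the lineage were present in every library. Mbp, which encodes the protein that seals the inner faces of the myelin membrane, was the highest of the 34 genes, with a mean of 789 FPKM (SD 303, n = 24), above 99.8% of genes on this scale. Cnp followed at 239 FPKM, then Cldn11, the tight junction protein of myelin, at 133 FPKM, and Mag, the adhesion protein on the axon side of the sheath, at 127 FPKM. Olig1, Bcas1, Omg and Mobp lay between 63.6 and 72.8 FPKM. Pdgfra, the progenitor receptor, averaged 14.9 FPKM (SD 3.14) and Cspg4, the NG2 proteoglycan, 7.19 FPKM (SD 1.82). The lowest were Gjb1 at 2.14 FPKM, a gap junction protein, and Plekhh1 at 2.46 FPKM. In the files' gene ontology terms, 7 of the 34 genes carried myelination, against 0.196% of all genes, and 8 carried oligodendrocyte differentiation, against 0.150%. The set was listed for these roles, so this excess follows from the choice of genes.

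**Figure D1:**
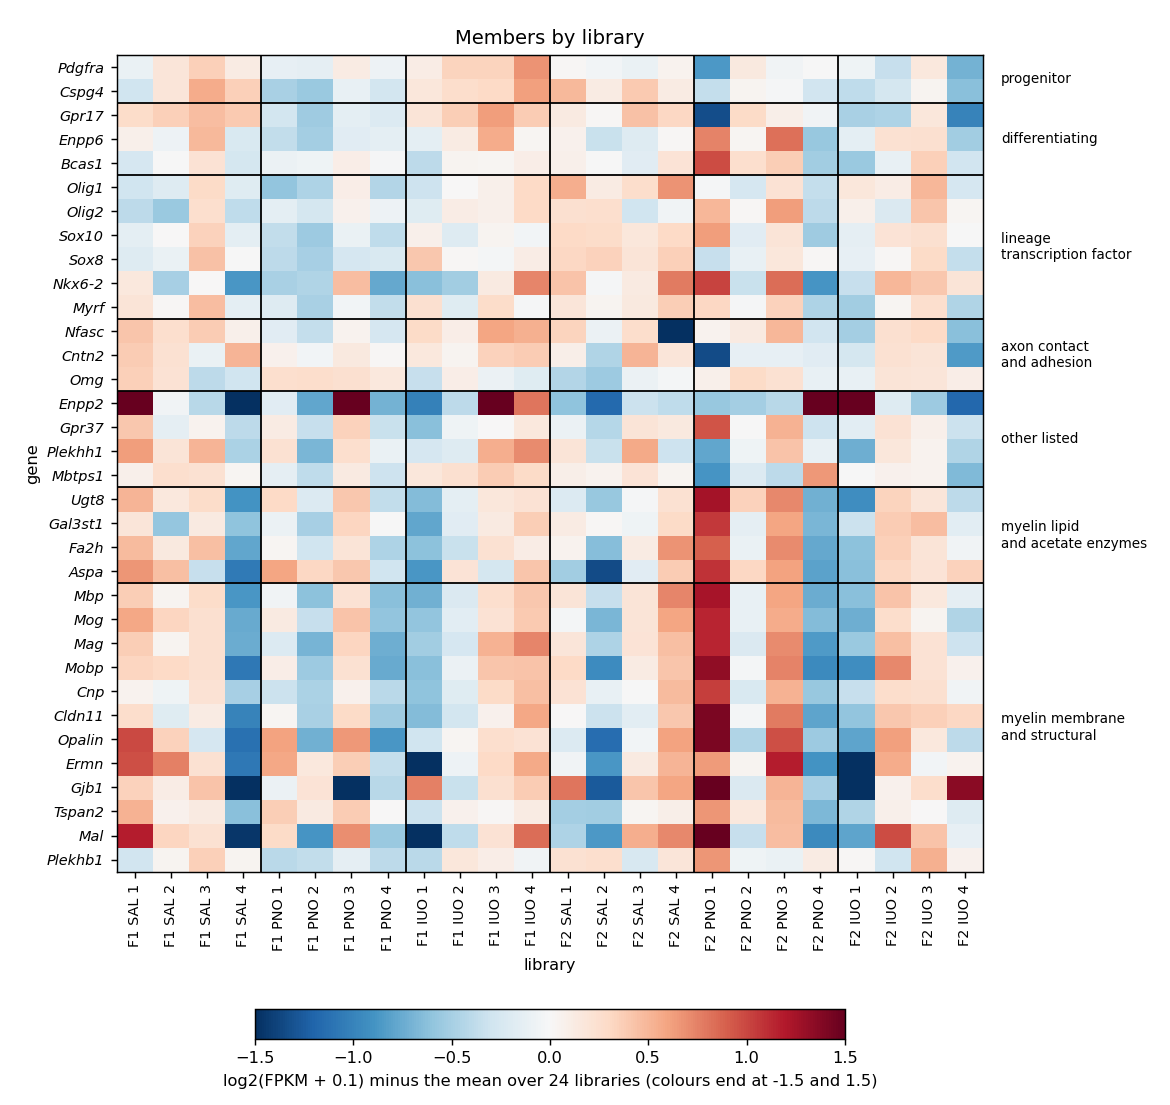
Each row is a gene and each column a library, and the colour gives log2(FPKM + 0.1) minus that gene's mean over the 24 libraries, with black lines between groups and between roles. Most myelin rows at the bottom rise and fall together from pup to pup within groups, with Gjb1 and Plekhb1 less close to Mbp (r of 0.56 and 0.38). The first F2 PNO library is the highest in these rows except for Ermn. Pdgfra, Cspg4 and Gpr17 at the top follow another pattern.

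The genes of the mature sheath varied several-fold between pups of the same group. Mbp was 956, 759, 895 and 405 FPKM in the F1 SAL pups, 713, 481, 862 and 480.4 in the F1 PNO pups and 449, 635, 879 and 981 in the F1 IUO pups. In the next generation it was 848, 581, 847 and 1226 FPKM in the F2 SAL pups, 1738, 683, 1114 and 441 in the F2 PNO pups and 477, 992, 826 and 675 in the F2 IUO pups. The groups overlapped in every pair, and the highest library was 4.29 times the lowest. Mag was 152, 122, 139 and 70.3 FPKM in the F1 SAL pups, 102, 72.7, 147 and 70.9 in the F1 PNO pups and 82.6, 99.4, 169 and 196 in the F1 IUO pups. It was 134, 85.6, 137 and 162 FPKM in the F2 SAL pups, 260.3, 102, 193 and 65.4 in the F2 PNO pups and 80.6, 162, 137 and 95.02 in the F2 IUO pups. Mal, a protein of myelin lipid rafts, ran from 2.97 to 30.9 FPKM, Opalin from 2.30 to 14.0 FPKM and Ermn, a cytoskeletal protein of the late sheath, from 0.93 to 9.11 FPKM. Replicate 1 of F2 PNO was the highest of all 24 libraries for 19 of the 34 genes and the lowest for 5, Pdgfra, Gpr17, Cntn2, Plekhh1 and Mbtps1. Its mitochondrial share, 47.4% of summed FPKM, was the highest of the series. In the F1, replicate 4 of SAL was the lowest library for 6 of the genes, Mbp and Mog among them. Within groups, the median SD on the log2 scale was 0.58 for the 11 structural genes other than Mbp and 0.26 for the 2 progenitor genes.

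Most of the sheath genes also moved together. Over the 24 libraries, 12 of the other 33 genes had r above 0.8 with Mbp on log2(FPKM + 0.1), given as a description since all points share their libraries and scaling. Mag stood at 0.97, Fa2h, which makes the hydroxylated fatty acids of myelin lipids, at 0.96, and Cnp, Mobp, Mog and Cldn11 at 0.94 to 0.95. The galactolipid enzymes Ugt8 and Gal3st1 were at 0.89 and 0.87, and Nkx6-2, a homeodomain factor needed for ordered paranodes, was at 0.89, above the other lineage factors, which lay from 0.09 for Sox8 to 0.70 for Sox10. Centred on group means, Mbp and Mog reached 0.98. The progenitor genes did not follow, with r of -0.19 for Pdgfra and 0.14 for Cspg4, nor did Gpr17 at -0.09. Among 13676 genes with a mean of at least 1 FPKM, 11 of the 20 most like Mbp were in the set, and those outside it included Tmem125 (0.96), Nipal4 (0.90) and Adamts4 (0.90).

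**Figure D2:**
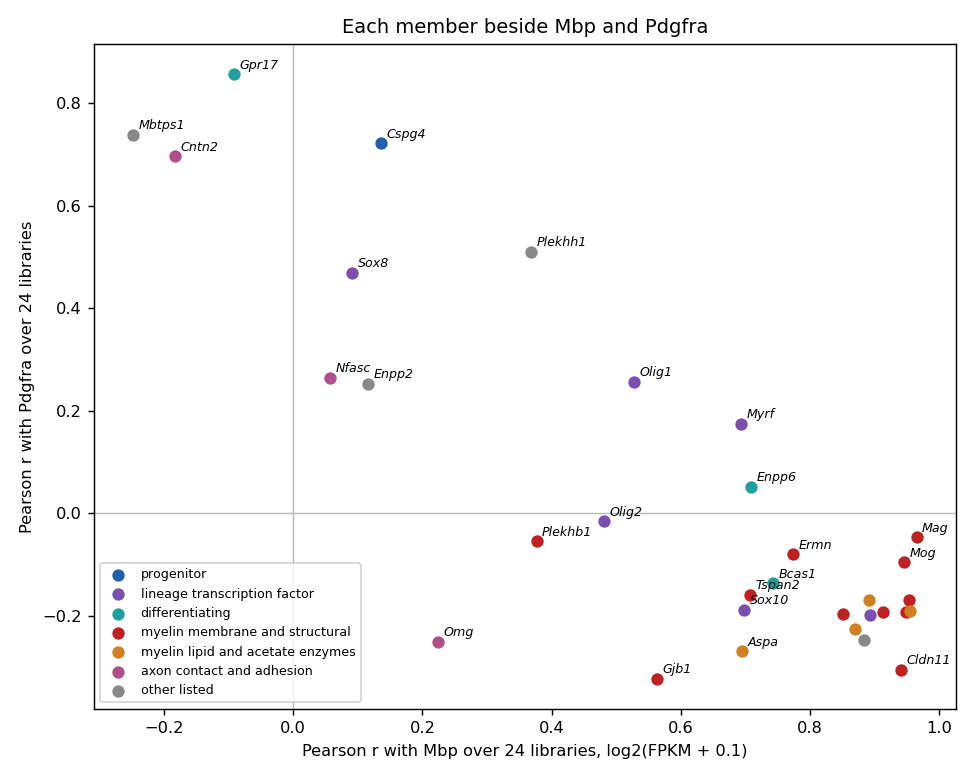
Each point is a gene, placed by its Pearson r with Mbp on the horizontal axis and with Pdgfra on the vertical axis over 24 libraries, coloured by role and named where r with Mbp is under 0.8 and for Mag, Mog and Cldn11. The sheath genes lie at the lower right, and Gpr17, Cspg4, Mbtps1 and Cntn2 at the upper left, with r to Pdgfra of 0.70 to 0.86.

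The genes closest to Pdgfra were few and of mixed roles. With Pdgfra, Gpr17 had r of 0.86, Mbtps1 0.74, Cspg4 0.72 and Cntn2 0.70. The other 2 genes of differentiating cells, Enpp6 and Bcas1, lay at 0.05 and -0.14 with Pdgfra and at 0.71 and 0.74 with Mbp. Gpr17 is a receptor carried for a short time by cells between progenitor and myelinating stage, and Mbtps1 encodes a protease that activates the regulators of cholesterol synthesis. Many other genes shared this pattern. The 20 genes most like Pdgfra held 0 members of the set, as did the 20 most like Gpr17, and 418 of the 13676 genes had r above 0.8 with Pdgfra and 655 with Gpr17, against 32 with Mbp. The 5 most like Pdgfra were Gapvd1, Alkbh5, Chd4, Slc1a4 and Arhgef17 (r 0.90 to 0.92). A family of 12 relations was chosen after the data were seen, so their p-values are given as a description. All points again share their libraries and scaling. Pdgfra rose with the astrocyte list (r = 0.79, permutation p = 1e-05, the smallest that 100000 resamples can give, adjusted p = 6e-05). Its rho was 0.71 (permutation p = 0.00019, adjusted p = 0.0018), and r was 0.64 without the 2 libraries farthest from the median. Gpr17 did likewise (r = 0.80, permutation p = 1e-05, adjusted p = 6e-05; rho = 0.70, permutation p = 0.0003, adjusted p = 0.0018), with r = 0.66 without the 2 farthest, and centred on group means the values were 0.75 for Pdgfra and 0.79 for Gpr17. Cspg4 followed the astrocyte list less closely (r = 0.58, permutation p = 0.00272, adjusted p = 0.00653; rho = 0.54, permutation p = 0.00664, adjusted p = 0.0199), with r = 0.44 without the 2 farthest. With the pericyte list r was nearly as high, but rho was lower. For Pdgfra, r was 0.70 (permutation p = 0.00032, adjusted p = 0.00096) and rho 0.44 (permutation p = 0.0307, adjusted p = 0.0737), with r = 0.55 without the 2 farthest. For Gpr17, r was 0.74 (permutation p = 8e-05, adjusted p = 0.00032) and rho 0.60 (permutation p = 0.00254, adjusted p = 0.0102), with r = 0.63 without the 2 farthest. Centred on group means, r with pericytes was 0.64 for Pdgfra and 0.68 for Gpr17, and rho 0.29 and 0.32. Centred rho with astrocytes was 0.62 and 0.69. For Cspg4 and pericytes, r was 0.54 (0.18 centred) and rho 0.39 (0.03 centred). Pdgfra fell with the mitochondrial share (r = -0.53, permutation p = 0.00945, adjusted p = 0.0162), with a rank value that missed the threshold (rho = -0.36, permutation p = 0.0874, adjusted p = 0.131). Centred on group means, r was -0.61 (permutation p = 0.0022) and rho -0.58. Without the 2 farthest libraries, the uncentred r was -0.13. The centred relation was not computed without them.

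Mbp showed no such relation with the astrocyte list (r = 0.01) or Pdgfra (r = -0.19, permutation p = 0.382; rho = -0.01, permutation p = 0.976), and of 14 relations with marker lists none passed adjustment. By the p of r, the lowest was with the cortex list (r = -0.54, permutation p = 0.00631, adjusted p = 0.0883; rho = -0.47, permutation p = 0.0229, adjusted p = 0.160), and r was -0.40 (permutation p = 0.0625) without the 2 farthest libraries. By the p of rho, it was with the hypothalamus list (rho = 0.49, permutation p = 0.01755, adjusted p = 0.160; r = 0.43, permutation p = 0.0355, adjusted p = 0.248). Leaving out the 2 farthest libraries gave 0.53 for hypothalamus (permutation p = 0.0109). After centring on group means, cortex stood at r = -0.57 (permutation p = 0.00332) and hypothalamus at 0.55 (permutation p = 0.00523).

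Enpp2 stood apart from the lineage. It encodes autotaxin, which oligodendrocytes secrete and the choroid plexus makes in quantity. In 6 libraries Enpp2 was 40.3 to 141 FPKM, and these were the 6 with the most Ttr (973 to 12103 FPKM), the transthyretin gene that defines choroid plexus epithelium. In the other 18 libraries Enpp2 was 8.12 to 22.3 FPKM, with Ttr at 1.75 to 245 FPKM. The 6 libraries were spread over 5 groups, 2 in F1 IUO and 1 each in F1 SAL, F1 PNO, F2 PNO and F2 IUO. With Mbp, Enpp2 had r of 0.12 over all libraries and 0.58 over the 18.

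The comparisons of groups asked whether exposure before or after birth changed these genes in the exposed generation and the next. A gene is termed called at an unadjusted two-sided p under 0.05 in limma, fitted on log2(FPKM + 0.1) over all genes; adjusted p-values are Benjamini-Hochberg over all genes tested. None of the 34 genes reached an adjusted p of 0.05 in any of the 12 fits. Of all genes, 0.133% did so in F1 IUO against PNO, 0.0343% in SAL and 0.0288% in PNO between generations, 0.00576% in F2 PNO against SAL and 0 in the rest. With 4 pups against 4, the exact permutation test on single genes cannot go below p = 0.0286.

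In F1 PNO pups, 8 of the 34 genes were called lower than in SAL and 0 higher, where 7.83% of all genes were called lower, 6.11% higher and 13.9% in either direction. Only 8 of the 34 had a log2 difference above 0, against 43.6% of all genes. Gpr17 came first of the 34 by p, at rank 5 of 17494 genes. Gpr17 was 47.5, 50.1, 54.3 and 51.6 FPKM in the F1 SAL pups, 32.3, 27.1, 35.5 and 34.1 in the F1 PNO pups and 44.8, 50.5, 60.5 and 51.1 in the F1 IUO pups. All 4 PNO pups were below all SAL and all IUO pups (PNO against SAL, log2 difference -0.66, SE 0.10, limma p = 8.79e-05, adjusted p = 0.231, exact permutation p = 0.0286). Nfasc, neurofascin, which joins the sheath to the axon beside the node and anchors the axon's own node, was 61.2, 54.7, 59.9 and 48.6 FPKM in the F1 SAL pups, 41.0, 35.8, 47.7 and 38.6 in the F1 PNO pups and 56.2, 49.2, 69.4 and 66.5 in the F1 IUO pups. Again no PNO pup reached a SAL pup (log2 difference -0.46, SE 0.11, limma adjusted p = 0.231). Cspg4 was 5.66, 7.93, 10.3 and 8.95 FPKM in the F1 SAL pups, 4.96, 4.73, 6.46 and 5.73 in the F1 PNO pups and 7.88, 8.41, 8.63 and 10.7 in the F1 IUO pups. One SAL pup lay within the PNO range (log2 difference -0.56, SE 0.19, limma p = 0.0168, adjusted p = 0.280, exact permutation p = 0.0857).

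Among the other called genes were 3 of the 6 lineage transcription factors, Myrf (-0.41), Sox8 (-0.38) and Sox10 (-0.36), with Plekhb1 (-0.37), a membrane protein with a pleckstrin domain, and Mbtps1 (-0.32). In 3 of the 34 genes, Gpr17, Nfasc and Sox8, every PNO pup lay outside the SAL range, as for 8.27% of all genes. The 12 structural myelin genes held 1 call, Plekhb1, and a median log2 difference of -0.19, against -0.05 over all genes. Mbp differed by -0.22 (exact permutation p = 0.600). Of 35 other oligodendrocyte genes, 4 were called lower and 0 higher: Tnr, a matrix protein made by progenitors (-1.03), Tppp (-0.48), Sox6 (-0.56) and Sirt2 (-0.29). Of 18 cholesterol synthesis genes, 2 were called higher, Idi1 (0.57) and Msmo1 (0.23). Thalamus markers moved with this contrast: 4 of 6 were called higher in PNO, with sums of 40.6 to 88.3 FPKM against 13.8 to 52.7 in SAL. In PNO, 3 of 6 hypothalamus, 2 of 5 microglia, 1 of 6 astrocyte and 1 of 9 striatal projection neuron markers were called lower. Of the 9 striatal markers, 0 had a log2 difference above 0 (median -0.45). Of the 6 cortex markers, 6 lay above 0 (median 1.33) and 0 were called. Apart from thalamus, the part of these lists was not tested. With the thalamus level as a covariate, 2 of the 8 calls were left, Gpr17 (-0.53) and Nfasc (-0.47). Calls over all 17494 genes went from 2438 to 760 in the same step. Cspg4, at -0.15, was not called, while the structural median was -0.44 with 0 of 12 above 0. The count was 4 without PNO replicate 1, 3 without PNO replicate 2, 4 without PNO replicate 4, 5 without SAL replicate 3 and 5 when all 24 libraries shared a fit.

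**Figure D3:**
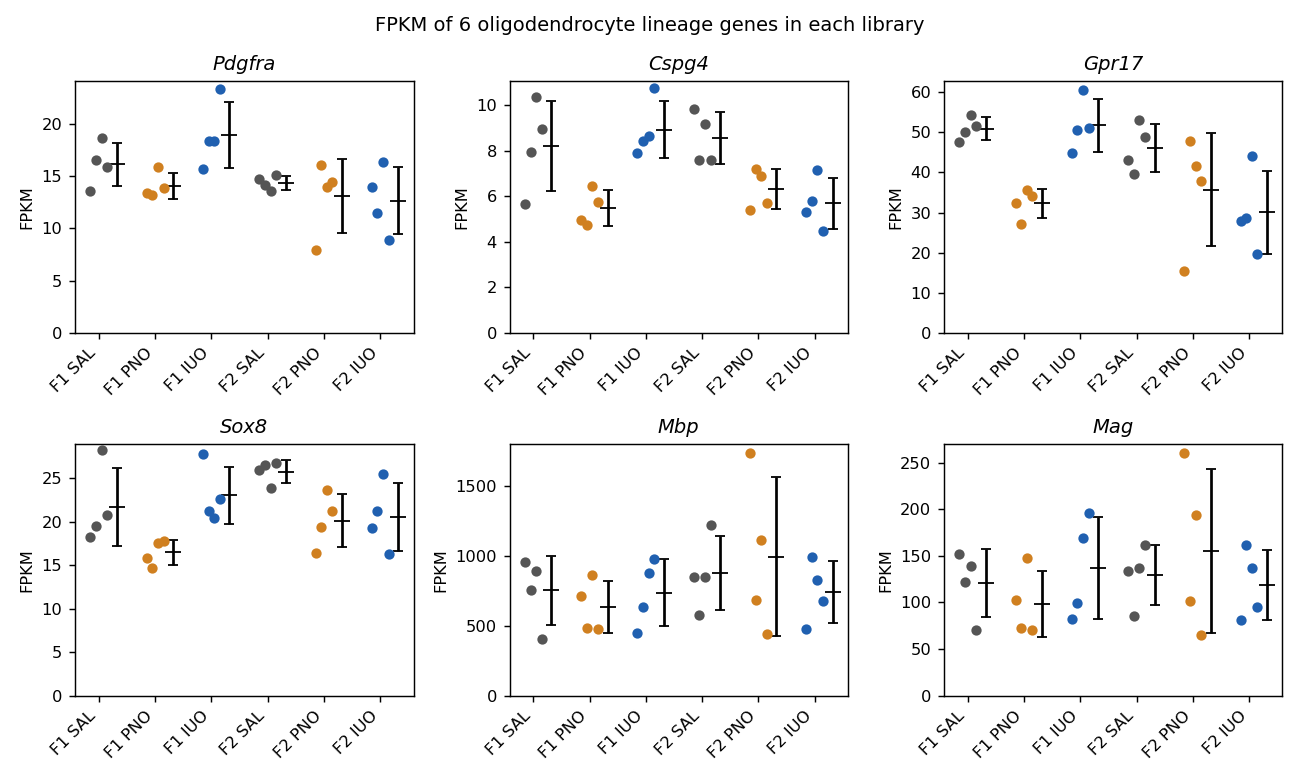
FPKM of 6 genes in each library by group, with the mean and SD (n = 4) as a black bar beside the points. Pdgfra, Cspg4, Gpr17 and Sox8 lie lower in F1 PNO than in F1 IUO, with no overlap for Cspg4, Gpr17 and Sox8, while Mbp and Mag overlap in all groups.

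No such count was seen in F1 IUO pups. Against SAL, 0 of the 34 genes were called in limma at an unadjusted p under 0.05, where 3.91% of all genes were (1.93% higher, 1.97% lower). The median log2 difference was 0.04, with 19 of 34 above 0 (51.6% of all genes), and 0 of 34 genes were free of overlap (2.54% of all genes). Single calls appeared without IUO replicate 1, without SAL replicate 3 or without SAL replicate 4, with a count of 1 in each case. Of the 35 other oligodendrocyte genes 0 were called, and of the 18 cholesterol genes Fdft1 (-0.22) and Nsdhl (-0.29) were called lower. Markers of other tissue did differ. In IUO, 4 of 6 hypothalamus markers (median log2 difference 1.91) and 2 of 3 blood markers (median 1.98) were called higher. Of 6 cortex markers, 6 lay above 0 (median 1.14) and 1 was called higher. Among Schwann cell markers, 1 of 3 was called lower. The part of these lists was not tested. Pdgfra was 13.6, 16.5, 18.6 and 15.9 FPKM in the F1 SAL pups, 13.4, 13.2, 15.9 and 13.9 in the F1 PNO pups and 15.7, 18.4, 18.3 and 23.3 in the F1 IUO pups. Its IUO pups overlapped SAL (log2 difference 0.22, exact permutation p = 0.286) and, in 1 PNO pup, the PNO group.

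Set directly against PNO, the F1 IUO pups had 9 genes called higher and 1 lower, against 10.1% and 6.41% of all genes (16.5% in either direction). Of the 34, 24 lay above 0, against 54% of all genes. This comparison shares the PNO libraries with that of PNO and SAL. Gpr17 led again (log2 difference 0.68, SE 0.12, limma p = 0.000319, adjusted p = 0.0848, exact permutation p = 0.0286), followed by Cspg4 (0.70, SE 0.15, adjusted p = 0.108) and Nfasc (0.56, SE 0.14, adjusted p = 0.127). Both progenitor genes were called, Pdgfra at 0.41 (exact permutation p = 0.0571), and 3 of 6 transcription factors, Sox8 (0.47), Myrf (0.35) and Sox10 (0.32). Enpp6, a choline phosphodiesterase of newly formed oligodendrocytes, was called at 0.44 and Mbtps1 at 0.44. Omg, a myelin glycoprotein that neurons also carry, was the 1 gene called lower, at 54.0, 73.7, 64.7 and 60.5 FPKM in the IUO pups against 81.8, 82.4, 80.7 and 76.3 in the PNO pups (-0.35). Groups did not overlap in 7 of the 34 genes (10.5% of all genes). None of the 12 structural genes and none of the 4 lipid and acetate enzymes was called, with medians of 0.16 and -0.09. With the mitochondrial share as a covariate the structural median was -0.02, with 5 of 12 above 0. Of the other oligodendrocyte genes, 4 of 35 were called higher, Tnr (1.11), Sox6 (0.77), Nkx2-2 (0.49) and Fyn (0.40). Of the 18 cholesterol genes, Idi1 (-0.60), Nsdhl (-0.49) and Msmo1 (-0.34) were called lower in IUO. Beside these calls, 4 of 6 thalamus markers were lower in IUO (10.2 to 59.5 FPKM summed), 6 of 9 markers of striatal projection neurons were higher (836 to 1178 FPKM against 538 to 748), 5 of 6 hypothalamus markers were higher and 1 of 6 astrocyte and 1 of 4 pericyte markers were higher; their part in the result was not tested beyond the thalamus level, with which as covariate 9 genes were called higher and 0 lower. Those 9 were spread otherwise, with 2 structural genes and 1 transcription factor among them, and the medians were 0.55 for the structural genes and 0.20 for the enzymes. With upper-quartile scaling 6 were higher and 2 lower, and with all 24 libraries in 1 fit 5 were called.

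**Figure D4:**
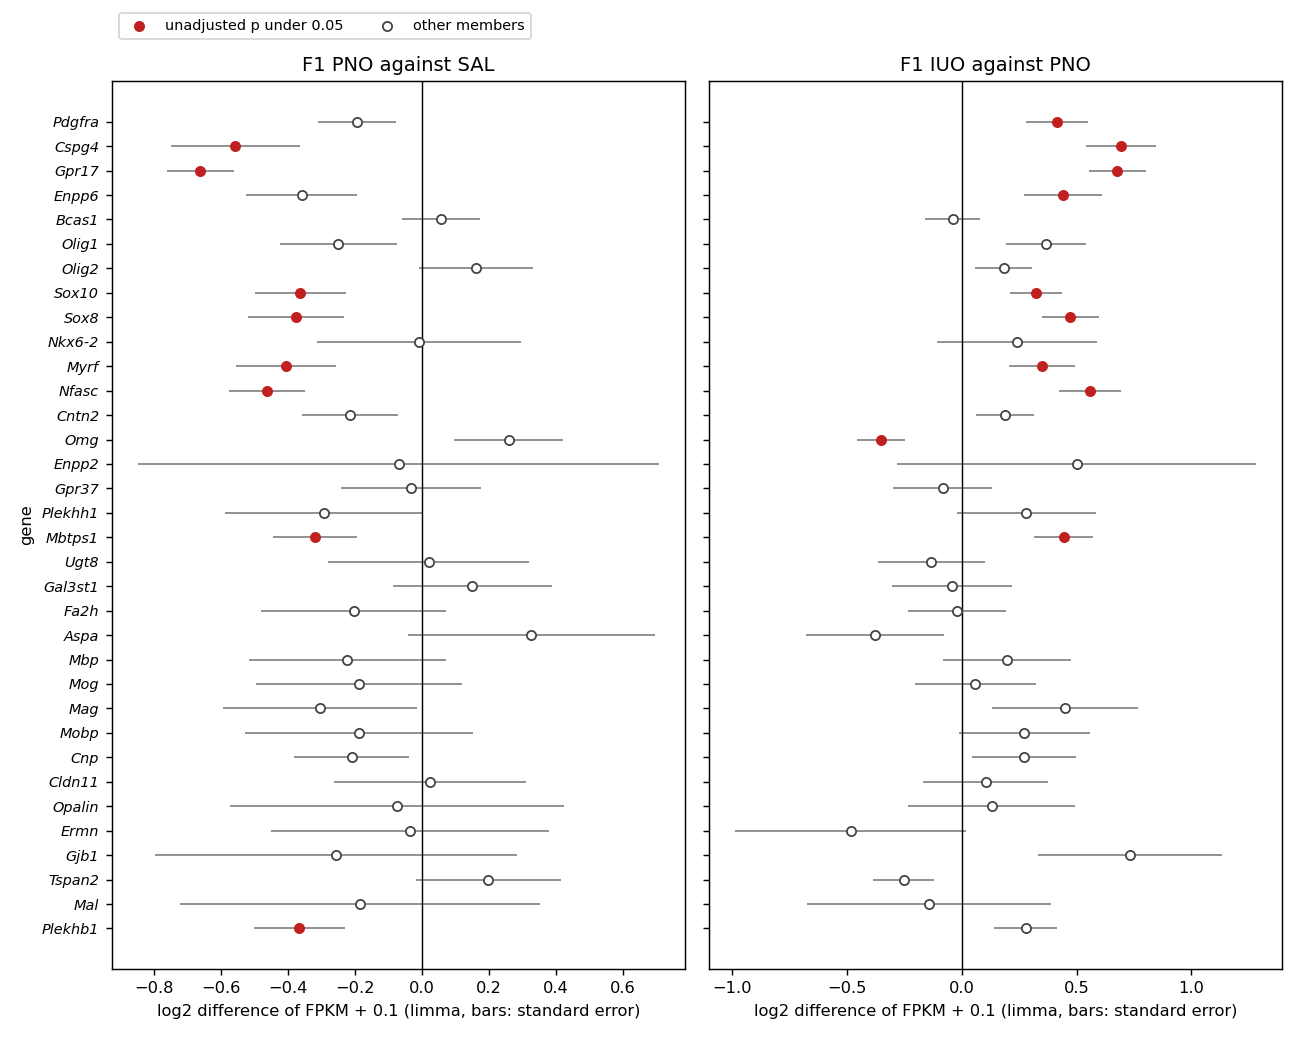
Log2 differences of FPKM + 0.1 with limma standard errors for the 34 genes in F1 PNO against SAL (left) and F1 IUO against PNO (right), ordered by role, with red points for unadjusted p under 0.05. Gpr17 is at -0.66 on the left and 0.68 on the right, and of the 12 structural genes 2 lie above 0 on the left and 9 on the right, with wide errors; both panels share the PNO libraries.

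In the F2, Cspg4 was called lower than in SAL in both oxy lineages, though the PNO call was lost in 7 of 18 alternatives, upper-quartile (-0.34) and nuclear-total (-0.38) scaling among them. Cspg4 was 9.83, 7.61, 9.19 and 7.61 FPKM in the F2 SAL pups, 5.41, 7.21, 6.88 and 5.71 in the F2 PNO pups and 5.32, 5.80, 7.16 and 4.47 in the F2 IUO pups. All 8 pups of the PNO and IUO lineages were below all 4 SAL pups, which both comparisons share. In F2 IUO against SAL, 3 genes were called lower and 1 higher (4.97% and 3.52% of all genes, 8.49% together). They were Cspg4 (-0.59, SE 0.18, limma adjusted p = 0.495, exact permutation p = 0.0286), Gpr17 (-0.67, SE 0.22, limma adjusted p = 0.543, exact permutation p = 0.0857), Sox8 (-0.34) and Omg (0.37). The median was -0.13, with 11 of 34 above 0 (39.6% of all genes). Gpr17 was 43.1, 39.6, 53.0 and 48.7 FPKM in the F2 SAL pups, 15.6, 47.9, 41.7 and 37.8 in the F2 PNO pups and 27.9, 28.6, 44.1 and 19.6 in the F2 IUO pups. One F2 IUO pup lay among the SAL values and the other 3 were below them. The libraries did not overlap in 1 of the 34 genes, Cspg4 (5.11% of all genes). Omg was 50.4, 46.8, 64.4 and 67.3 FPKM in the F2 SAL pups, 72.0, 83.8, 80.3 and 63.4 in the F2 PNO pups and 63.5, 78.2, 78.0 and 73.4 in the F2 IUO pups. The F2 IUO and F2 PNO ranges of Omg both met the SAL range at its upper end. Of the other oligodendrocyte genes, Cryab (0.59), a small heat shock protein, was called higher and Zfp536 (-0.54) lower, and 4 of 18 cholesterol genes were called higher, Msmo1, Ebp, Idi1 and Sqle (0.28 to 0.44). The sums of the striatal projection neuron list were 408 to 997 FPKM in F2 IUO and 772 to 1029 in F2 SAL, and those of the pericyte list 27.6 to 46.0 and 42.1 to 46.7, and 4 of 6 cortex and 2 of 3 blood markers were called higher and 2 of 5 microglia markers lower in F2 IUO; their part was not tested. The count of 4 was 2 without SAL replicate 1 or without SAL replicate 2, and upper-quartile scaling gave 0 higher and 5 lower.

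In F2 PNO against SAL, 3 genes were again called lower and 1 higher (6.83% and 3.97% of all genes, 10.8% together), Olig1 (-0.50, SE 0.17, limma adjusted p = 0.386), Sox8 (-0.36), Cspg4 (-0.44) and Omg (0.40). Olig1, a helix-loop-helix factor of the lineage, was 104, 77.0, 85.2 and 113 FPKM in the F2 SAL pups, 70.0, 59.4, 82.5 and 55.5 in the F2 PNO pups and 79.8, 76.4, 100.2 and 59.5 in the F2 IUO pups. Its PNO and SAL ranges overlapped, with 1 PNO pup above the lowest SAL pup. Sox8, a partner of Sox10, was 25.9, 26.5, 23.9 and 26.8 FPKM in the F2 SAL pups, 16.4, 19.4, 23.6 and 21.2 in the F2 PNO pups and 19.2, 21.2, 25.5 and 16.3 in the F2 IUO pups. No PNO pup reached a SAL pup. Sox8 and Cspg4 were the 2 genes without overlap (7.01% of all genes), and 23 of 34 lay above 0 (41.7% of all genes). All 12 structural genes had a log2 difference above 0, with a median of 0.22, yet none was called, and with the mitochondrial share as a covariate none was above 0 and the median was -0.40. Mbp itself was at 0.05 (exact permutation p = 0.943) and at -0.28 without PNO replicate 1. The count of 4 was 10 without PNO replicate 4, 2 without SAL replicate 1 and 9 with the choroid plexus level as a covariate. Of the other oligodendrocyte genes, Gpr62 (-1.0) and Zfp536 (-0.54) were called lower, and of the cholesterol genes Nsdhl (0.32) and Msmo1 (0.33) were called higher and Mvd (-0.38) lower. Of the marker lists, 2 of 5 microglia markers (61.1 to 79.2 FPKM summed against 78.9 to 101 in SAL) and 2 of 4 neuron markers (609 to 1050 against 990.1 to 1246) were called lower, and 2 of 3 blood markers (30.6 to 195 against 13.2 to 36.1) and 1 of 6 astrocyte markers higher; their part was not tested.

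F2 IUO and F2 PNO pups had 0 genes called between them in limma, where 7.07% of all genes had an unadjusted p under 0.05 (4.59% higher, 2.48% lower). In 0 of 34 were the groups free of overlap (4.74% of all genes), and 6 of 34 lay above 0 (48.2% of all genes). Without PNO replicate 4 there were 3 calls, with the choroid plexus level as a covariate 1 and with the mitochondrial share 2. The medians were -0.27 for the structural genes and -0.10 for the progenitor genes, with Mbp at -0.29 (exact permutation p = 0.600). With the mitochondrial share as a covariate the direction turned, with a structural median of 0.37, 12 of 12 structural genes above 0 and 24 of 34 members above 0.

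Between generations of the IUO lineage, the share of members called was near that of all genes. In F2 IUO, 5 of 34 genes were called lower than in F1 IUO and 0 higher (9.65% and 5.35% of all genes, 15% together), and 15 of 34 lay above 0 (41.4% of all genes). Gpr17 (-0.83, SE 0.22, limma adjusted p = 0.227) and Cspg4 (-0.65, SE 0.19, limma adjusted p = 0.236) did not overlap between generations, nor did Mbtps1 (-0.41), 3 of 34 genes against 10.7% of all genes. Pdgfra was 14.7, 14.2, 13.6 and 15.1 FPKM in the F2 SAL pups, 7.95, 16.1, 14.0 and 14.4 in the F2 PNO pups and 13.9, 11.4, 16.3 and 8.89 in the F2 IUO pups. Against F1 IUO it was lower by log2 difference -0.60 (SE 0.20, limma adjusted p = 0.247, exact permutation p = 0.0571), and Nfasc was at -0.52. The structural genes had a median of 0.00 and no call. Tnr (-1.44), Ptprz1 (-0.56), Tmem88b (-1.10) and Fyn (-0.25) were the other oligodendrocyte genes called lower, and Cryab (0.85) and Ninj2 (0.70) were called higher. Of the 18 cholesterol genes, 4 were called higher in F2, Msmo1, Ebp, Fdps and Fdft1 (0.28 to 0.56). The count of 5 was 3 without IUO replicates 1, 3 or 4 of F1 or 1 or 4 of F2, each left out alone. The summed pericyte markers were 27.6 to 46.0 FPKM in F2 IUO and 44.3 to 58.0 in F1 IUO, and the astrocyte markers 355 to 541 and 430 to 555, and 5 of 9 markers of striatal projection neurons were called lower in F2; their part was not tested.

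In SAL pups, Olig1 (0.50, limma adjusted p = 0.569) and Nkx6-2 (0.63, limma adjusted p = 0.585) were called higher in F2 and 0 genes lower (3.78% and 4.69% of all genes, 8.48% together). Of the 34, 16 lay above 0 (47% of all genes) and 0 were free of overlap (4.98% of all genes). Olig1 had been 57.4, 61.9, 86.3 and 62.4 FPKM in F1 SAL, and Nkx6-2 was 6.76, 4.25, 6.07 and 3.25 FPKM in F1 SAL and 8.18, 5.99, 6.64 and 10.4 in F2 SAL, so both overlapped. Among the other oligodendrocyte genes, Tnr (-0.50) and Ptprz1 (-0.32) were called lower in F2 SAL. The count of 2 was 1 without F1 replicate 2, F2 replicate 1 or F2 replicate 4 and 5 without F1 replicate 3. With the mitochondrial share as a covariate neither gene was called, and the Nkx6-2 call was lost in 8 of 18 alternatives. In PNO pups, Plekhb1 alone was called, at 26.6, 27.5, 32.1 and 27.0 FPKM in F1 and 55.9, 33.8, 33.0 and 38.7 in F2 (log2 difference 0.48, limma adjusted p = 0.948), where 2.13% of all genes were higher, 2.63% lower and 4.76% either. Plekhb1 and Cntn2 were the 2 genes without overlap (3.34% of all genes). The median over the 34 genes was 0.30 in that comparison, against -0.06 over all genes, and 28 of the 34 lay above 0 (41.3% of all genes). The count of 1 call moved with single pups. It was 14 without F2 PNO replicate 4 and 3 without F2 PNO replicate 1. Without F1 PNO replicate 3 it was 2, and without F1 PNO replicate 1 it was 0. Of 6 thalamus markers, 3 were called lower in F2 and 0 lay above 0. Of 9 striatal projection neuron markers, 3 were called higher and 7 lay above 0. Called higher were also 1 of 6 hypothalamus, 1 of 6 astrocyte and 1 of 5 microglia markers. Called lower were 1 of 5 microglia and 1 of 4 neuron markers. The part of these lists was not tested.

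Whether an effect differed between generations was tested by interaction (effect in F2 minus effect in F1). For IUO against SAL, Cspg4 (-0.73, SE 0.27) and Gpr17 (-0.69, SE 0.26) were called, both at a limma adjusted p of 0.924, where 5.15% of all genes were called (1.62% higher, 3.53% lower) and 13 of 34 lay above 0 (41.4% of all genes). For IUO against PNO, Cspg4 (-0.85, SE 0.25, limma adjusted p = 0.793) and Nfasc (-0.81, SE 0.30, limma adjusted p = 0.833) were called (5.76% of all genes; 3.04% higher, 2.72% lower), and 4 of 34 lay above 0 (46% of all genes). For PNO against SAL 0 genes were called in limma (4.06% of all genes at an unadjusted p under 0.05; 1.61% higher, 2.45% lower). Of the 34, 29 lay above 0 (45.3% of all genes), and the 12 structural genes all had a positive interaction, with a median of 0.40 and no call. That median was 0.19, with 11 of 12 above 0, with the mitochondrial share as a covariate and 0.76 with the thalamus level, and 1 structural gene was called with nuclear-total scaling.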

How the data were processed

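RNA was sequenced from nucleus accumbens tissue of 24 P14 pups. The authors deposited FPKM values per gene, estimated with StringTie; HISAT2, SAMtools and edgeR are also named in the submitters' processing notes. Versions and the genome build are not given in the sources used here. Genes reaching 0.1 FPKM in 4 libraries of the groups fitted were analysed on log2(FPKM + 0.1) with limma 3.58.1 (R 4.3.3, trended variance), because FPKM values are not counts. The pseudocount understates differences of low genes. All 34 members passed the filter in each comparison. Mbp and Pdgfra, and later Gpr17 and Cspg4, were also tested by exact permutation, and relations over libraries by 100000 permutations. The fits were tested on simulated data. The members and lists were chosen with earlier results of these data known. Values per library are given for Mbp, Pdgfra and up to 3 called members per comparison with the lowest p, with the same genes and Mag shown in further groups. The rule named up to 3 genes of the other oligodendrocyte list per comparison; where 4 to 6 were called, all are named, a choice made after their values were seen, as were the cholesterol genes named. Promoters were matched by symbol; for Mbp and Nfasc, which have 2 entries each, the first was used. No clear pairing of pups by replicate number was seen. The motifs were chosen from general knowledge. Results for some genes outside the members are not reported here.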

Additional observations from a re-analysis of the deposited data

Results flagged for a closer look

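Within groups of 4 pups, 11 of 204 sets of values had 1 library set far from the other 3 by Dixon's ratio, where chance gives about 1 in 20, or 10.2. In F1 SAL, replicate 4 was low for Mobp at 27.7 FPKM against 68.9 to 73.1 (ratio 0.939) and for Gjb1 at 0.47 FPKM against 1.97 to 2.47 (ratio 0.856). In F1 IUO, replicate 1 was low for Bcas1, a gene of early myelinating cells, at 53.3 FPKM against 71.4 to 74.6 (ratio 0.871). In F1 PNO, replicate 3 was high for Plekhb1 at 32.1 FPKM against 26.6 to 27.5 (ratio 0.834).

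In F2 SAL, replicate 4 had Nfasc at 9.91 FPKM against 43.4 to 57.9 (ratio 0.836), and replicate 3 had Plekhb1 at 29.9 FPKM against 40.0 to 42.1 (ratio 0.852). In F2 IUO, replicate 1 was low for Cldn11 at 82.0 FPKM against 153 to 163 (ratio 0.904) and for Aspa, which frees acetate for myelin lipids, at 2.55 FPKM against 4.61 to 5.12 (ratio 0.848), and replicate 4 was low for Mbtps1 at 9.06 FPKM against 14.3 to 15.0 (ratio 0.902). In F2 PNO, replicate 1 was low for Cntn2, an adhesion protein of the juxtaparanode, at 2.33 FPKM against 5.37 to 5.56 (ratio 0.960), and replicate 4 was high for Enpp2 at 87.5 FPKM against 15.5 to 17.4 (ratio 0.936).

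Of 102 interaction tests of the members, 4 had an unadjusted limma p under 0.05. Among all genes, the share called was 5.15% in the IUO and SAL interaction. It was 4.06% in the PNO and SAL interaction and 5.76% in the IUO and PNO interaction. The IUO and SAL estimate was -0.73 on the log2 scale for Cspg4 (adjusted p = 0.924) and -0.69 for Gpr17 (adjusted p = 0.924). The IUO and PNO estimate was -0.85 for Cspg4 (adjusted p = 0.793) and -0.81 for Nfasc (adjusted p = 0.833). None passed adjustment over all genes.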

How the results depend on the processing

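Read depth is unknown, and 4 pups per group limit precision. Of the alternatives to the called members followed singly, 397 kept their side of an unadjusted p of 0.05, 31 did not and 0 changed direction. The lowest adjusted p of any member was 0.0437, for Gpr17 in F1 IUO against PNO with libraries rescaled to the nuclear total, a setting chosen after seeing the data (range over settings 0.0437 to 0.296). Upper-quartile scaling moved the median of all genes by -0.12 in F1 IUO against both SAL and PNO and by -0.16 in F2 IUO against PNO; nuclear-total scaling moved it by -0.10 in F2 IUO against PNO and by -0.11 in IUO between generations, and gave 0 members higher and 3 lower in F2 IUO against SAL, and 1 higher and 1 lower in SAL between generations.

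Counts of called members that moved beyond 1.5 times were as follows; the cause was not tested. With all 24 libraries in 1 fit, F1 PNO against SAL had 5, F1 IUO against PNO 5, SAL between generations 1, PNO between generations 3, IUO between generations 3, the PNO and SAL interaction 1 and the IUO and PNO interaction 5. With the thalamus level as covariate, F1 PNO against SAL had 2, SAL between generations 6, the PNO and SAL interaction 1 and the IUO and PNO interaction 6. With the choroid plexus level, F2 PNO against SAL had 9, F2 IUO against PNO 1, IUO between generations 3 and the PNO and SAL interaction 1. With upper-quartile scaling, PNO between generations had 2, the PNO and SAL interaction 1 and the IUO and PNO interaction 4. With the nuclear total these interactions had 2 and 6. With the mitochondrial share, also chosen after seeing the data, F2 IUO against PNO had 2, SAL between generations 0, PNO between generations 2 and the IUO and PNO interaction 4.

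With replicate number as a block, F2 PNO against SAL had 2 called members, SAL between generations 1, IUO between generations 3, the PNO and SAL interaction 2 and the IUO and PNO interaction 5; F1 PNO against SAL had 10. Same-numbered pups correlated from -0.357 to 0.186 after removal of group means, and no clear pairing was seen, though pairing was not tested. Between F1 IUO and F1 PNO, 3 of 4 pups were closest to their own number (mean r 0.084, against -0.028 for other numbers).

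Leaving out each pup in turn gave 0 to 1 called members in F1 IUO against SAL, 3 to 11 in F1 PNO against SAL, 2 to 6 in F2 IUO against SAL, 2 to 10 in F2 PNO against SAL, 0 to 3 in F2 IUO against PNO, 1 to 5 in SAL, 0 to 14 in PNO and 3 to 5 in IUO between generations, and 2 to 4, 0 to 1 and 2 to 5 in the interactions of IUO with SAL, PNO with SAL and IUO with PNO. The last of these had 4 without F1 IUO replicate 2 and 5 without F2 IUO replicate 3, F2 PNO replicate 1 or F2 PNO replicate 4; that of IUO with SAL had 4 without F1 SAL replicate 3 or F2 IUO replicate 3; that of PNO with SAL had 1 without replicate 1 or 4 of F1 SAL, 1 or 4 of F2 PNO or 1 or 3 of F2 SAL. The log2 difference of Mbp, never called, ran from -0.30 to 0.19 in F1 IUO against SAL, -0.62 to 0.045 in F2 IUO against PNO, -0.28 to 0.38 in F2 PNO against SAL, -0.19 to 0.22 in IUO and -0.0336 to 0.42 in SAL between generations. That of Pdgfra ran from 0.31 to 0.50 in F1 IUO against PNO (0.29 with exact permutation p = 0.0286 under upper-quartile scaling, and 0.50 with the same p without IUO replicate 1), -0.26 to 0.12 in F2 IUO against PNO, -0.29 to 0.0444 in F2 PNO against SAL, and -0.73 to -0.44 in IUO, -0.26 to 0.0769 in PNO and -0.24 to -0.0887 in SAL between generations.

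Without the 2 farthest libraries, r with Mbp was 0.15 for Pdgfra, 0.0459 for the choroid plexus list (0.00962 centred on group means), 0.0413 for the neuron list, -0.40 for the cortex list and -0.15 for the mitochondrial share (-0.0299 centred); r with the mitochondrial share was -0.13 for Pdgfra, -0.19 for Cspg4 and 0.0454 for Nfasc; and r of Cspg4 with the pericyte list was 0.40 (0.18 centred).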
